A study of Homo sapiens with 6 samples.

Results

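Kinesins are motor proteins that use ATP to move along microtubules or to shorten them. The genes described here are those named KIF followed by a family number and an optional letter, on the assembled chromosomes: 39 of the 63299 genes in the count table. They were divided by known role into 12 mitotic kinesins, 13 transport kinesins and 14 other kinesins, and 34 of them (11, 12 and 11 by class) had enough reads to be tested. Mitotic kinesins build the spindle, align and separate chromosomes and drive cytokinesis, and most of them are made mainly in the G2 and M phases of the cell cycle. Transport kinesins carry vesicles, mitochondria and ciliary cargo and are also made by cells that are not dividing. In tumour cell lines the mitotic motors are known as products of proliferating cells, whereas a few transport motors such as KIF5B serve nearly every cell.

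The study used LNCaP, an androgen-sensitive human prostate cancer line derived from a lymph node metastasis, and sequenced its RNA. In the 3 knockdown libraries a short hairpin RNA against MEP50 was switched on with doxycycline. The 3 control libraries are labelled as having neither the knockdown nor doxycycline. MEP50 is the protein of the gene WDR77 and the partner of the arginine methyltransferase PRMT5. The design text calls the 3 replicates of each group biological. Whether the control cells carry the uninduced hairpin, whether the line is 1 clone, and the dose and length of treatment are not given in the sources used here. Doxycycline was present in one group alone, so an effect of the drug and an effect of the hairpin cannot be told apart.

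Total counts ran from 18568002 to 36234784 per library. WDR77 stood at 15, 14 and 12.7 read counts scaled per library total (CPM) in knockdown replicates 1 to 3, against 49.3, 47.2 and 36.7 CPM in the controls (log2 fold change -1.67, SE 0.16, adjusted p 0.00131, edgeR). Of the labelled cell type, all 10 luminal prostate markers were expressed, with a sum of 4579 to 5146 CPM in the knockdown and 7683 to 9057 CPM in the controls. The basal markers KRT5 and TP63 were at 0 and at no more than 0.0388 CPM, and KRT14 at no more than 1.11 CPM. The 4 leukocyte markers summed to 0.366 to 1.4 CPM and the 4 fibroblast markers to 6.17 to 14.7 CPM, nearly all of the latter COL1A1. Of the 21101 genes tested, 4.88% were called lower in the knockdown and 2.72% higher, at an adjusted p under 0.05 in edgeR's quasi-likelihood F test. Lower genes made 64.2% of these calls, but 44.7% when libraries were scaled by their upper quartile, which raised the median log2 fold change of all genes from 0.00 to 0.124. The labels do not say whether a replicate number marks a shared culture. The numbers were taken to pair the libraries across groups because same-numbered libraries correlated in these data. A second fit that adds this number as a block called 14.9% of genes lower and 11.2% higher. Adjusted p-values from that paired fit are given below as "with the block".

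The mitotic kinesins were lower after the knockdown in every same-numbered pair of libraries, for all 11 that were tested. This holds for 29.0% of all tested genes. The class as drawn leaves out KIF2A, a relative of the mitotic KIF2C, which was higher by 0.14, 0.06 and 0.21 log2 units in pairs 1 to 3. The counts given here depend on that placement. KIF20A and KIF20B fell at the adjusted threshold, to 0.39 and 0.461 times their control means, and 10 of the 11 had an unadjusted p under 0.05, as did 24.7% of all tested genes. With the block all 11 were called lower, as were 14.9% of all tested genes, and none higher. Without knockdown replicate 1 the unblocked fit called 7 lower, without control replicate 3 it called 3, and without any one of the other 4 libraries 0. Their log2 fold changes ran from -1.36 to -0.41 with a median of -1.00, beside a median of 0.00 over all tested genes. The ranges of the groups were apart for 4 of the 11 (KIF20A, KIF20B, KIF2C and KIF11), with the knockdown lower, and the background for this is 17.0% of tested genes. In bulk RNA, fewer dividing cells and less transcript per dividing cell cannot be told apart.

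KIF20A, also called MKLP2, brings the chromosomal passenger complex to the central spindle at anaphase. The gene lies on the plus strand of chr5:138178719-138187715 (hg38). Its level was 62.6, 39.6 and 25.3 CPM in knockdown replicates 1 to 3, and 150.4, 98.6 and 77.9 CPM in control replicates 1 to 3. The highest knockdown library lay under the lowest control. The group means were 42.5 ± 18.8 CPM (SD, n = 3) and 109 ± 37.3 CPM (SD, n = 3), a log2 fold change of -1.36 (SE 0.33, adjusted p 0.0414 in edgeR, and 2.8e-06 with the block). Leaving out knockdown replicate 2 (adjusted p 0.147), knockdown replicate 3 (0.0901), control replicate 1 (0.105) or control replicate 2 (0.0582) ended the call. Its exons share 3.34% and 1.72% of their length with the opposite-strand genes BRD8 and CDC23. These had 1745 to 3099 and 1436 to 3177 counts per library, and whether their reads were told apart from those of KIF20A is not known. KIF20B, a motor of cytokinesis on the plus strand of chr10:89701610-89774939, stood at 43.9, 41.4 and 20.3 CPM in the knockdown and at 95, 77.3 and 57.1 CPM in the controls, again without overlap. This gave a log2 fold change of -1.12 (SE 0.29) with an adjusted p of 0.04997 in edgeR and 2.67e-05 with the block, and the call, at the edge of the threshold, held without knockdown replicate 1 but was lost without any one of the other 5 libraries (adjusted p from 0.0568 to 0.131).

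KIF2C (MCAK) removes tubulin from microtubule ends and helps correct wrong attachments at the kinetochore. It measured 46.6, 32.6 and 22.4 CPM in the knockdown and 99.5, 69.9 and 51.6 CPM in the controls, with no overlap. Its log2 fold change was -1.12 (SE 0.30), and its adjusted p was 0.052 in edgeR and 8.67e-06 with the block. The exons of KIF2C share 175 bases, 4.8% of their length, with an opposite-strand gene, RP11-269F19.2, that had 2308 to 6903 counts per library. The strand setting of the counting is not given in the sources used here, so whether reads in that stretch were told apart is not known. KIF11 (Eg5) pushes the spindle poles apart. Its level was 45.2, 40.8 and 21 CPM in the knockdown against 89.9, 73.5 and 51 CPM in the controls, again apart, for a log2 fold change of -1.00 (SE 0.29, adjusted p 0.072 in edgeR, 3.46e-05 with the block).

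KIF23 (MKLP1) forms centralspindlin with RACGAP1 at the spindle midzone. It measured 39, 26.2 and 17.4 CPM in the knockdown and 70.3, 56.3 and 38.3 CPM in the controls. Knockdown replicate 1 lay just above control replicate 3, so the groups overlapped (log2 fold change -1.00, SE 0.30, adjusted p 0.0785 in edgeR, 3.35e-05 with the block). KIF18B, which shortens astral microtubules, measured 21.2, 10.9 and 9.89 CPM against 37.9, 37.7 and 17.3 CPM, with the same overlap (log2 fold change -1.15, SE 0.36, adjusted p 0.0887 in edgeR, 0.000488 with the block). KIF22 (Kid), a chromokinesin that pushes chromosome arms away from the poles, was the most abundant mitotic member per length, at 30.9 CPM per kilobase of exon in the controls and 18.3 in the knockdown. Its level was 109.9, 73.8 and 53.5 CPM in the knockdown and 160.4, 134 and 106 CPM in the controls (log2 fold change -0.76, SE 0.25, adjusted p 0.105 in edgeR, 0.000195 with the block). Again it was knockdown replicate 1 that reached into the control range. KIF22 shares 13% of its exon length with the opposite-strand gene AC009133.21, which had 356 to 865 counts per library. Here too it is not known whether reads were told apart.

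The remaining 4 tested mitotic members showed the same order of libraries, and for each the groups overlapped. KIF14, which works with citron kinase in cytokinesis, had a mean of 30.7 ± 10.3 CPM in the knockdown and 53.3 ± 12.2 CPM in the controls (SD, n = 3 each; log2 fold change -0.79, adjusted p 0.0945 in edgeR, 0.000182 with the block). KIF15, which supports spindle bipolarity beside KIF11, had a log2 fold change of -0.90 (adjusted p 0.15 in edgeR, 0.000191 with the block). For KIF4A, a chromokinesin that sets the length of the midzone with PRC1, it was -0.77 (adjusted p 0.162 in edgeR, 0.00016 with the block). KIF18A, which limits chromosome movement at the metaphase plate, had the smallest difference of the class, from 26.3, 18.3 and 15.6 CPM in the controls to 22.4, 13.7 and 9.2 CPM in the knockdown. The log2 fold change of -0.41 (SE 0.32) had an adjusted p of 0.46 in edgeR and 0.0258 with the block. KIF4B was not tested: it had 4, 8 and 5 counts in the knockdown libraries and 3, 5 and 2 in the controls. Its transcript is 95.3% identical to that of KIF4A over 4359 aligned bases, so reads of the pair may not have been told apart in the counting.

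**Figure D1:**
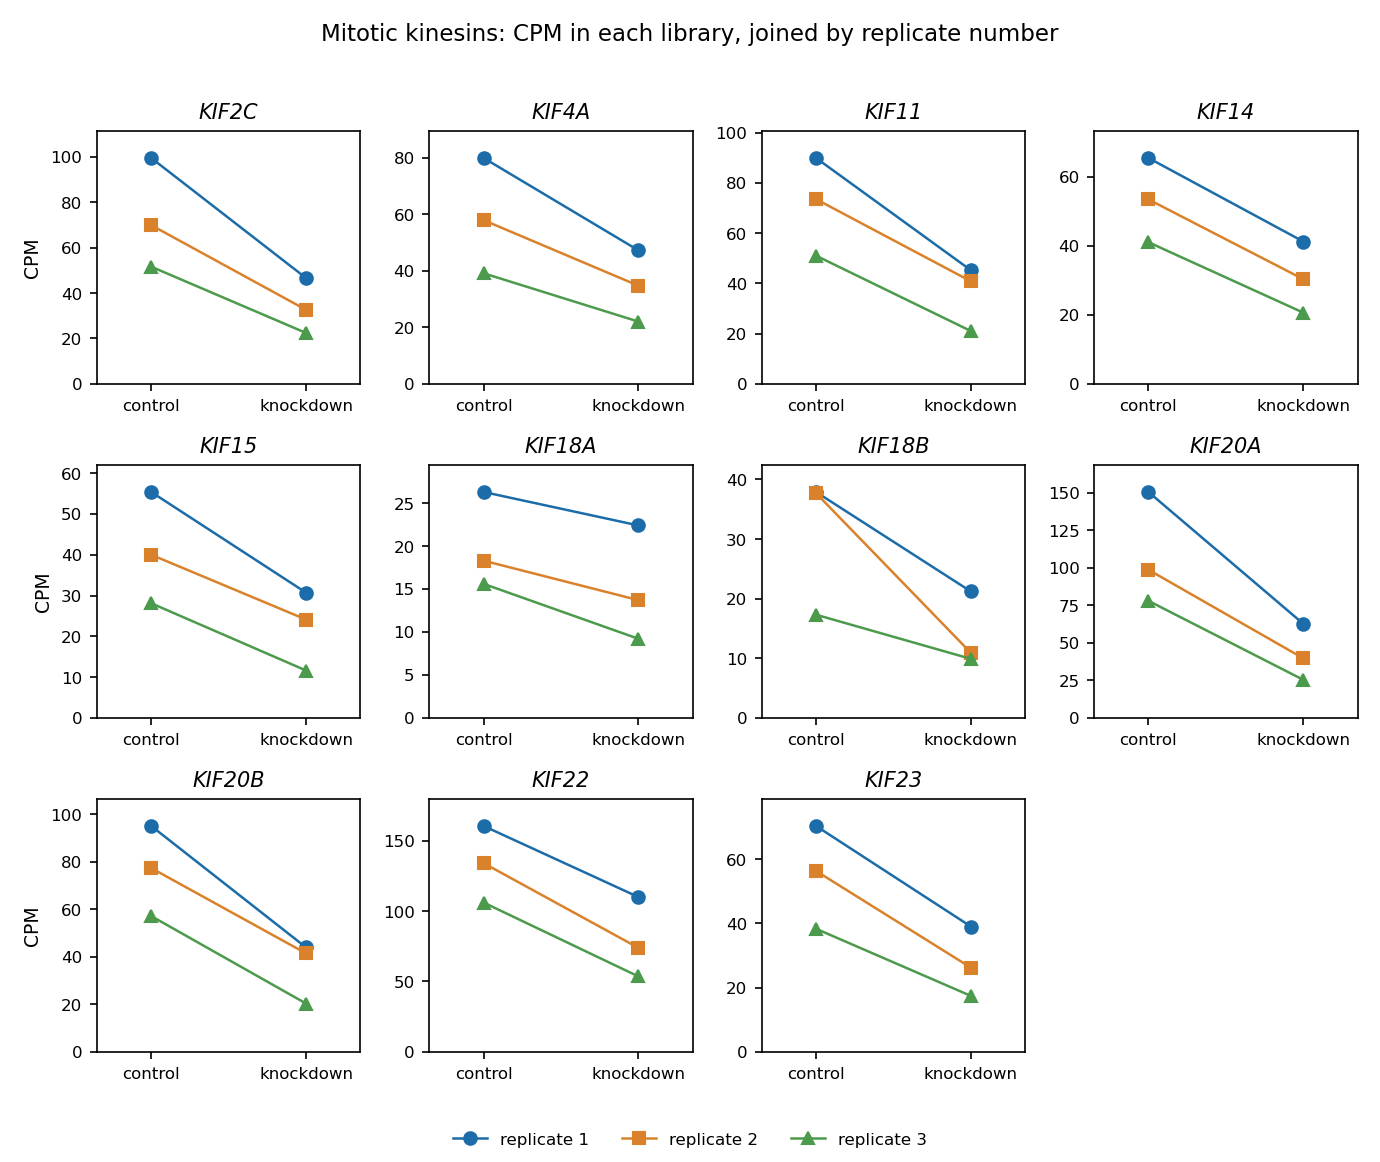
Level of the 11 tested mitotic kinesins in CPM (linear axes from 0), control on the left and knockdown on the right of each panel, with symbols and colours for the replicates 1 to 3 and a line joining libraries of the same number. Every line falls, and replicate 1 lies highest and replicate 3 lowest in both groups.

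Within each group the mitotic kinesins moved together from library to library. Summed over the class, the level was 510.1, 368 and 234 CPM in knockdown replicates 1 to 3 and 930.4, 717 and 523 CPM in control replicates 1 to 3. Replicate 1 was highest and replicate 3 lowest in both groups, and knockdown replicate 1 came close to control replicate 3. The median deviation of the tested members from their own mean over the 6 libraries was 0.07, -0.37 and -1.10 (log2) in the knockdown and 0.91, 0.54 and 0.06 in the controls. Within pairs of the same number, the median log2 difference was -0.85, -0.86 and -1.14. Replicates of a group were thus spread over about as many log2 units as lay between the groups, and this spread enters the fit without the block.

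The 10 G2/M markers, general genes of dividing cells, followed the same library order. Their median deviations were 0.06, -0.49 and -1.16 in the knockdown and 0.92, 0.56 and 0.04 in the controls. Of these 10, 2 were called lower, beside 4.88% of all tested genes. They were MKI67 (log2 fold change -1.57, adjusted p 0.0142 in edgeR) and PLK1 (-1.27, adjusted p 0.0289 in edgeR). With the block 10 were called lower, beside 14.9% of all tested genes. The median of the list was -1.03. The MKI67 call was lost without knockdown replicate 2 (adjusted p 0.0533), and that of PLK1 in 4 of the 6 fits with a library left out (knockdown 2, knockdown 3, control 1, control 2). The count of 2 became 6 without knockdown replicate 1, 4 without control replicate 3, 0 without knockdown replicate 2 and 1 without any one of the rest. Per 100 CPM of these markers, the mitotic kinesins summed to 46.1, 47.8 and 50.1 CPM in the knockdown and to 45.4, 45.9 and 52.3 CPM in the controls. The groups overlapped on this ratio, in contrast to the kinesin sum itself. Of the 10 G1/S markers, 4 were called lower and 9 with the block (median -0.93). The smallest p among them was that of RRM2, a subunit of ribonucleotide reductase, at a log2 fold change of -2.10 (adjusted p 0.0118 in edgeR, and 0.0545 without knockdown replicate 2). The part of cell cycle composition in the kinesin differences was not tested.

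**Figure D2:**
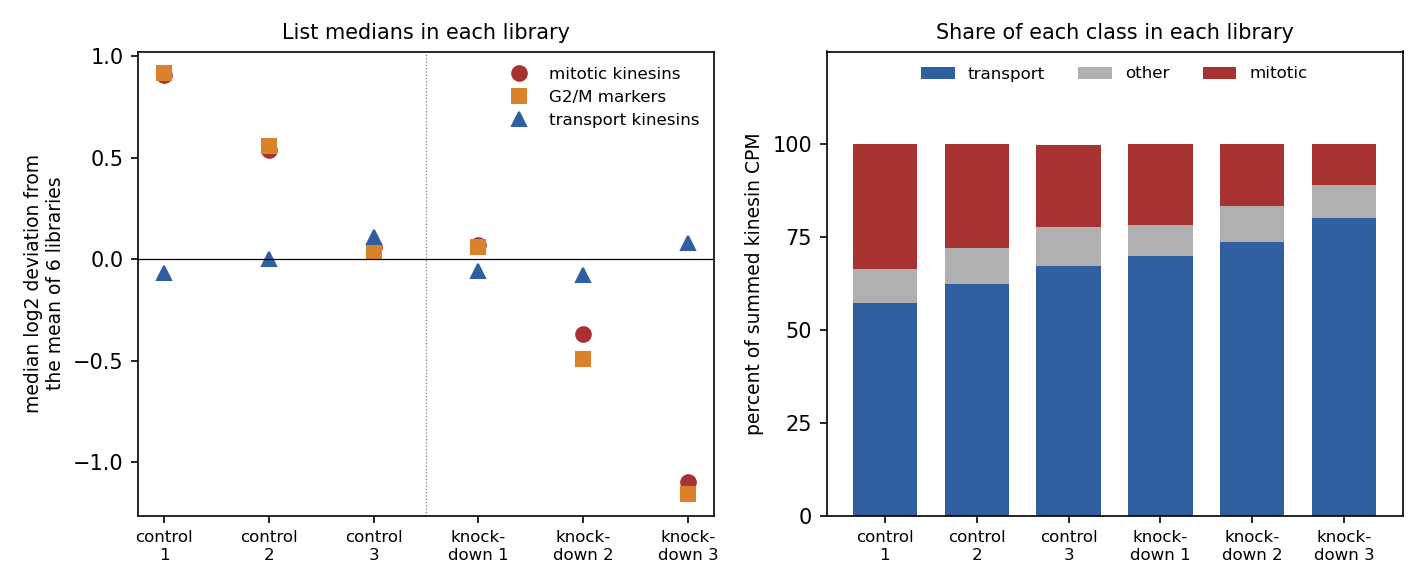
Median deviation (log2) of the tested mitotic kinesins, transport kinesins and G2/M markers from each gene's mean over 6 libraries, by library (left), and the share of transport, other and mitotic kinesins in the summed kinesin CPM of each library (right). The mitotic kinesins run from 0.91 in control replicate 1 to -1.10 in knockdown replicate 3 together with the G2/M markers, and the transport kinesins stay between -0.08 and 0.11.

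Promoter sequences were compared because the mitotic members moved together. Known elements of G2/M gene promoters are the cell cycle genes homology region, here searched as TTTGAA and as TTTAAA, and the CCAAT box, which is bound by NF-Y. Windows of 250 bases before to 50 after the annotated start were available for 33 of the 39 members in RefSeq (GRCh38.p14), and both strands were searched. The windows of KIF5A, KIF13B, KIF19, KIF21B, KIF26B and KIF27 are missing. The following 6 mitotic promoters, from 110 bases before to 50 after the start and written along the gene, show the arrangement, with matches to these 3 motifs on either strand in capitals. A CCAAT box on the opposite strand appears as ATTGG. The reverse complement of TTTGAA appears as the sequence TTCAAA, and TTTAAA is the same on both strands. KIF20A and KIF20B are the called members, KIF11 and KIF23 are uncalled members with a log2 fold change of -1.00, and KIF4A and KIF18A are members with smaller differences.
KIF20A, chr5:138179002-138179161, plus strand: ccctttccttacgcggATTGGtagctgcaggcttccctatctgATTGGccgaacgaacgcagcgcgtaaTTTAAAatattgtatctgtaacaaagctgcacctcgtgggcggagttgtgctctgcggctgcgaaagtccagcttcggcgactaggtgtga
KIF20B, chr10:89701480-89701639, plus strand: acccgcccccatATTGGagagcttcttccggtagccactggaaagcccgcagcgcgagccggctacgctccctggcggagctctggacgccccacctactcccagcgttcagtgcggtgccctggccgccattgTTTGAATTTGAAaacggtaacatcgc
KIF11, chr10:92593020-92593179, plus strand: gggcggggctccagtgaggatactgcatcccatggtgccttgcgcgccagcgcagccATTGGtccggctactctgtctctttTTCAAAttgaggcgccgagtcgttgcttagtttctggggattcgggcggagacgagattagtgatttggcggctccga
KIF23, chr15:69414239-69414398, plus strand: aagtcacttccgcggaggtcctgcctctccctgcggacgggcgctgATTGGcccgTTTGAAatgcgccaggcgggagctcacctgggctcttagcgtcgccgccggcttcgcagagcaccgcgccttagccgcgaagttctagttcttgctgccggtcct
KIF4A, chrX:70289994-70290153, plus strand: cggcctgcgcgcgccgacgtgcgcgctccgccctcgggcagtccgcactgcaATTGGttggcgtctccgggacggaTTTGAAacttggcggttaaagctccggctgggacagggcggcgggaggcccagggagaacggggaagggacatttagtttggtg
KIF18A, chr11:28108107-28108266, minus strand: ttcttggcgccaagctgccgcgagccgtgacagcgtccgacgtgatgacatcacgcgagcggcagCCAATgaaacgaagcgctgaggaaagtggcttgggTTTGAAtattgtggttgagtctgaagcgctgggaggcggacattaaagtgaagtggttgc
For comparison, KIF21A, the kinesin with the smallest p outside the mitotic class, and KIF5B, the most abundant transport kinesin, are shown in the same way.
KIF21A, chr12:39443071-39443230, minus strand: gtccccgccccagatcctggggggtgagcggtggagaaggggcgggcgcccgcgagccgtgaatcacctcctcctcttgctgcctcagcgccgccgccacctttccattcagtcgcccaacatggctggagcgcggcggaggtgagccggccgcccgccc
KIF5B, chr10:32056376-32056535, minus strand: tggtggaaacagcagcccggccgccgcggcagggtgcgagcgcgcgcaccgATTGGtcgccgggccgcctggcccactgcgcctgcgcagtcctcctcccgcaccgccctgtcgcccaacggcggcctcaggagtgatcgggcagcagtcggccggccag
In KIF4A, TTTGAA begins 34 bases before the start and the reverse complement of CCAAT 58 bases before it. In KIF23 these lie 55 and 64 bases before the start. In KIF18A TTTGAA and CCAAT, both along the gene, begin 10 and 45 bases before it, and in KIF11, with both on the opposite strand, they lie at 28 and 53. KIF20A has TTTAAA 41 bases before the start and CCAAT matches at 67 and 94, and KIF20B has a pair of adjoining TTTGAA copies after the start. The printed stretch of KIF21A holds none of the 3 motifs, and that of KIF5B holds CCAAT alone.

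TTTGAA was found in the windows of 9 of 12 mitotic kinesins (75.0%), 1 of 11 transport kinesins (9.09%) and 0 of 10 other kinesins. It occurs in 18.2% of all 27305 genes with a window. TTTAAA was found in 4 mitotic, 1 transport and 0 other members, and in 14.5% of all genes. CCAAT was found in 10 of 12 mitotic members (83.3%), 4 of 11 transport members (36.4%) and 3 of 10 other members (30.0%), and in 39.7% of all genes. One of the hexamers together with CCAAT was present in 9 of 12 mitotic kinesins, 1 of 11 transport kinesins (KIF5B), 0 of 10 other kinesins, 7 of 9 G2/M markers and 11.2% of all genes. KIF22 is the mitotic member with neither hexamer in its window, and KIF2C and KIF15 are those with a hexamer and no CCAAT. These are matches of letters in a fixed window and do not show binding. KIF22, KIF2C and KIF15 had log2 fold changes of -0.76, -1.12 and -0.90, inside the range of the rest of the class. Whether the motifs have a part in the knockdown differences was not tested.

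Among the transport kinesins no member was called in either direction by edgeR. Of the 12 tested, 1 had an unadjusted p under 0.05 (24.7% of all tested genes did), and DESeq2 and limma-voom also called 0. Their log2 fold changes ran from -0.34 to 0.61 with a median of -0.02. In all 3 pairs 5 were lower and 3 were higher, as were 29.0% and 27.1% of all tested genes. The groups were apart for 2 with the knockdown lower (KIF3A and KIF1B) and for 1 with the knockdown higher (KIF13A), beside backgrounds of 17.0% and 13.4% of tested genes. With the block KIF3A alone was called, as lower.

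KIF5B, a heavy chain of conventional kinesin that carries mitochondria and vesicles, was the most abundant kinesin per length, at 94.7 CPM per kilobase in the controls and 109 in the knockdown. Its level was 596, 635 and 697 CPM in the knockdown and 604, 509.8 and 555 CPM in the controls. The groups overlapped, and the log2 fold change was 0.21 (SE 0.13, adjusted p 0.358 in edgeR). KIF1C, a vesicle motor, followed at 32.4 CPM per kilobase in the controls. It stood at 358, 351 and 295 CPM in the knockdown and 294, 295 and 244 CPM in the controls, higher in each of the 3 pairs by 0.25 to 0.28 log2 units (log2 fold change 0.27, SE 0.14, adjusted p 0.263 in edgeR, 0.0649 with the block). The difference was small, was alike in the 3 pairs and did not pass the threshold.

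KIF3A and KIF3B are the motor subunits of heterotrimeric kinesin-2, which moves cargo toward the tip of cilia. KIF3A measured 55.6, 49.4 and 46.4 CPM in the knockdown and 64.4, 57.1 and 69.5 CPM in the controls, with no overlap (log2 fold change -0.34, SE 0.13, adjusted p 0.157 in edgeR, 0.0409 with the block). Its partner KIF3B measured 169, 152 and 178 CPM against 157, 151 and 179 CPM, values that overlapped throughout (log2 fold change 0.03, SE 0.12, adjusted p 0.901 in edgeR). KIF3C, a paralog that can replace KIF3B, ranged from 5.7 to 13.3 CPM in the knockdown and from 7.84 to 8.09 CPM in the controls (log2 fold change 0.25, adjusted p 0.62 in edgeR).

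KIF1A and KIF1B carry synaptic vesicle precursors in neurons, and an isoform of KIF1B carries mitochondria. KIF1B measured 167, 187 and 194 CPM in the knockdown and 198, 251 and 215 CPM in the controls, apart by a narrow margin (log2 fold change -0.28, SE 0.13, adjusted p 0.234 in edgeR, 0.0641 with the block). KIF1A was present in these prostate cells at 113, 101 and 139 CPM in the knockdown and 121, 181 and 146 CPM in the controls (log2 fold change -0.34, SE 0.18, adjusted p 0.268 in edgeR). KIF13A, which moves recycling endosomes, measured 88.9, 68.5 and 68.3 CPM in the knockdown and 65.5, 55.6 and 63.2 CPM in the controls. The knockdown libraries were the higher ones (log2 fold change 0.29, SE 0.15, adjusted p 0.254 in edgeR, 0.062 with the block). KIF17, a motor of dendrites and cilia, was near the limit of detection, with 10, 25 and 21 counts in the knockdown and 10, 18 and 15 in the controls (log2 fold change 0.61, adjusted p 0.334 in edgeR). KIF5C, KIF13B and KIF16B had log2 fold changes of -0.15, -0.19 and -0.08 with adjusted p of 0.526, 0.524 and 0.825 in edgeR. KIF5A, the neuronal heavy chain, had 1 to 19 counts per library and was not tested.

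**Figure D3:**
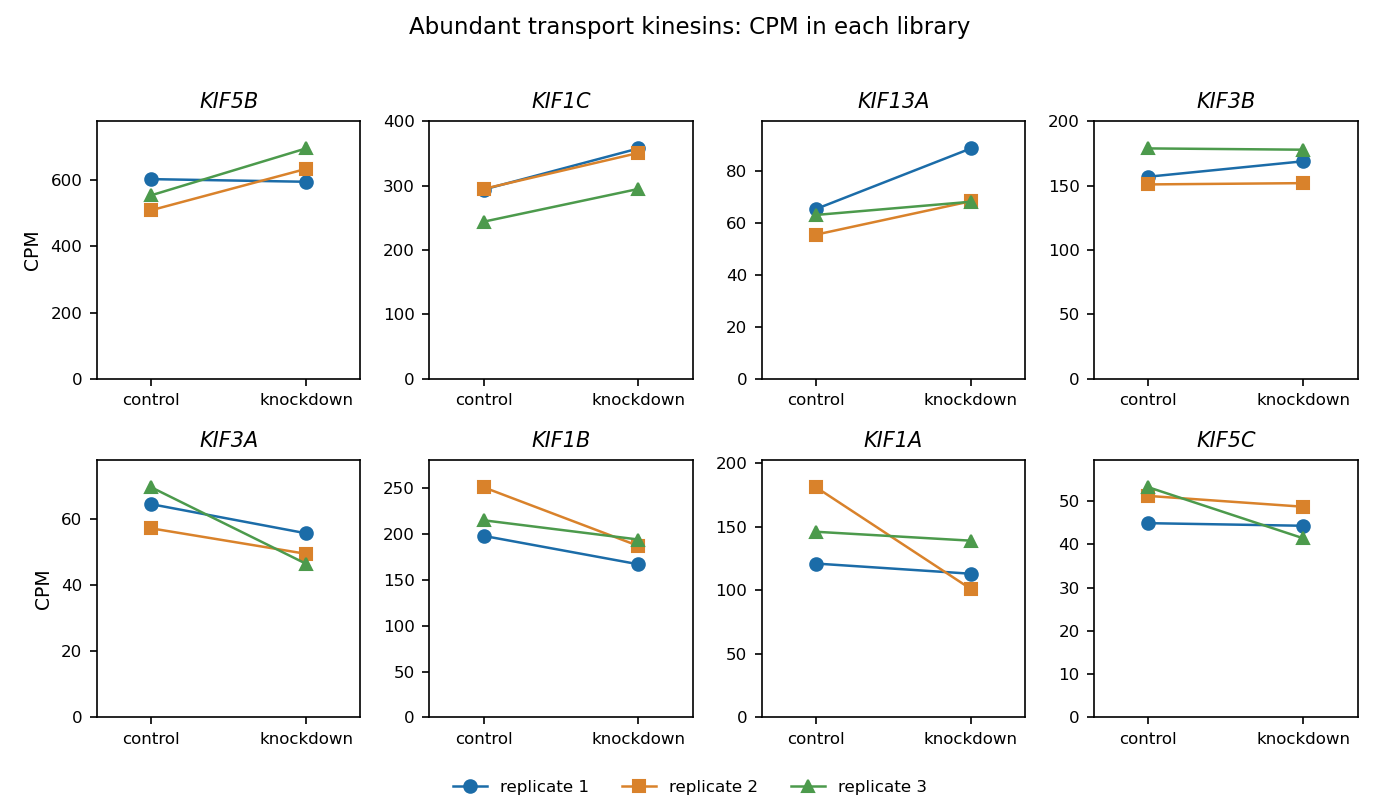
Level of 8 transport kinesins in CPM (linear axes from 0), with lines joining control and knockdown libraries of the same replicate number. KIF5B lies at 509.8 to 697 CPM, and of the genes shown the groups are apart for KIF3A, KIF1B and KIF13A.

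As a class the transport kinesins summed to 1639, 1633 and 1708 CPM in the knockdown and 1591, 1601 and 1576 CPM in the controls. The mitotic class made up 21.7, 16.6 and 11% of all kinesin CPM in knockdown replicates 1 to 3 and 33.5, 27.9 and 22.3% in control replicates 1 to 3. Each knockdown library was below every control, with knockdown replicate 1 only just so. The transport share was 69.8, 73.8 and 80.2% against 57.2, 62.3 and 67.3%. KIF5B alone was 25.4 to 32.7% of kinesin CPM in the knockdown and 19.8 to 23.7% in the controls. These shares are of reads, not per length. A share of a fixed total rises when another falls, and the difference between the classes was not itself tested.

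**Figure D4:**
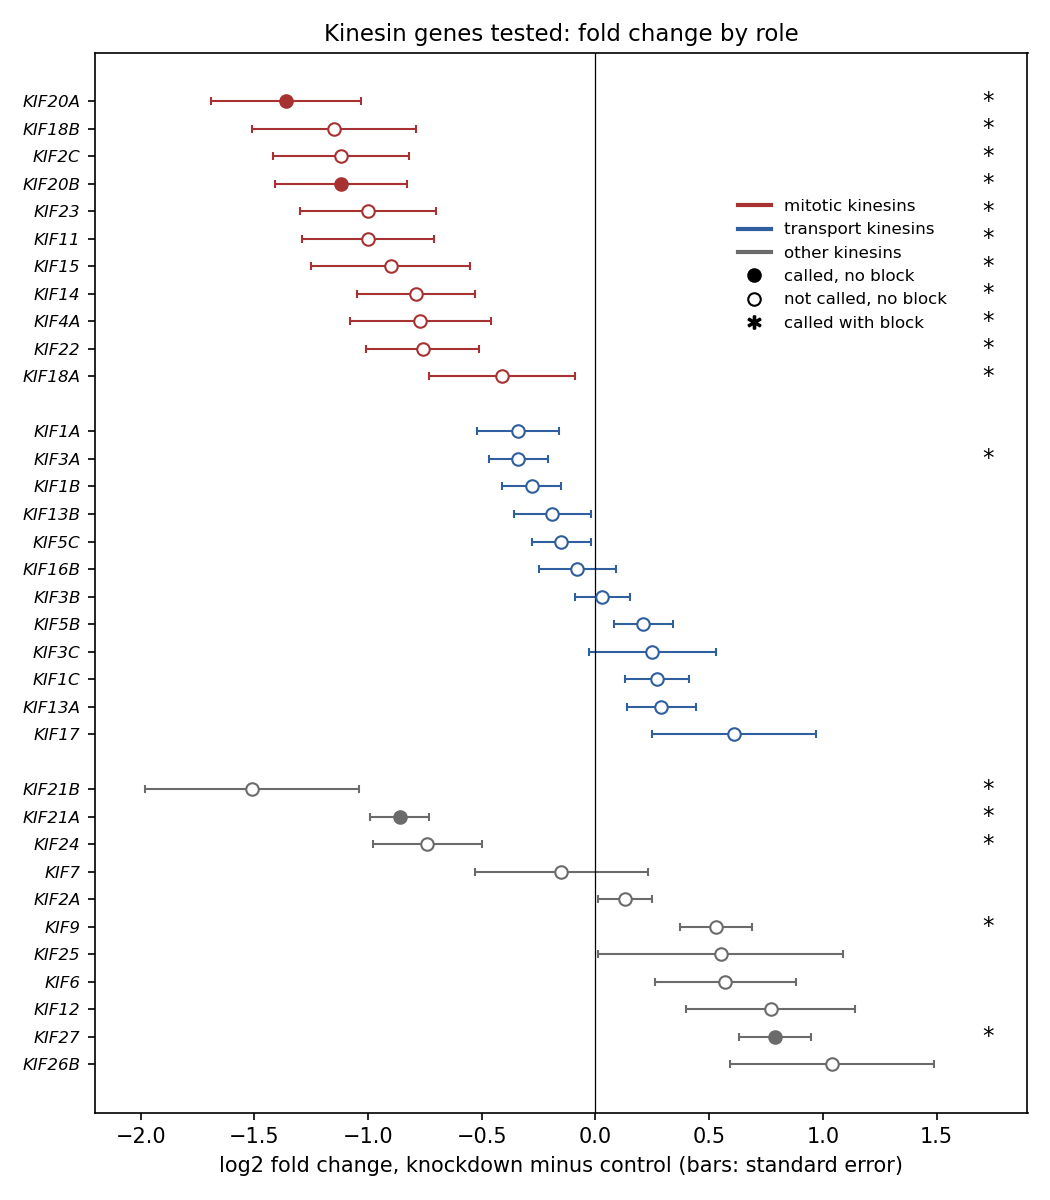
Log2 fold change (knockdown over control, edgeR without block) with its standard error for the 34 tested kinesins, by class. A filled symbol marks a call at an adjusted p under 0.05, an open symbol no call, and an asterisk a call with the replicate block; all 11 mitotic kinesins lie below 0, and the transport kinesins lie from -0.34 to 0.61.

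KIF21A fell and KIF27 rose among the kinesins outside both classes. Of 11 tested, 1 was called lower (KIF21A) and 1 higher (KIF27), beside 4.88% and 2.72% of all tested genes. With the block 3 were called lower (KIF21A, KIF24 and KIF21B) and 2 higher (KIF27 and KIF9), beside 14.9% and 11.2%. KIF24 and KIF21B were also called lower without knockdown replicate 1 (adjusted p 0.0476 and 0.0408 in edgeR). That was 1 of the 6 fits with a library left out, and adjusted p reached 0.257 and 0.241 in the rest. DESeq2 called KIF24 and KIF21B lower (adjusted p 0.0349 and 0.0427) and KIF9 higher (0.0423). In limma-voom these 3 were not called (adjusted p 0.087, 0.0649 and 0.0766). The log2 fold changes ran from -1.51 to 1.04. The groups were apart for 2 with the knockdown lower and 6 with the knockdown higher, some of these at very low counts, beside 17.0% and 13.4% of all tested genes.

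KIF21A is a processive motor that slows microtubule growth at the cell cortex and is best known from neurons. The gene lies on the minus strand of chr12:39293228-39443390. Its level was 68.1, 80.8 and 68 CPM in knockdown replicates 1 to 3 and 137, 121 and 135 CPM in the controls. The groups were far apart, and no order of replicates like that of the mitotic motors was seen. The means were 72.3 ± 7.35 CPM and 131 ± 9.07 CPM (SD, n = 3 each), a log2 fold change of -0.86 (SE 0.13, adjusted p 0.00602 in edgeR), the smallest p of all 34 tested kinesins. The call held when any 1 library was left out (adjusted p from 0.0101 to 0.0318). Its paralog KIF21B, also a regulator of microtubule growth, had 17, 9 and 11 counts in the knockdown and 34, 61 and 39 in the controls. These are 0.91, 0.243 and 0.504 CPM against 1.32, 2.03 and 1.11 CPM, lower without overlap (log2 fold change -1.51, SE 0.47, adjusted p 0.0834 in edgeR, 0.0165 with the block).

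KIF27 is a relative of the Hedgehog-pathway kinesin KIF7 and is known for a role in motile cilia, and lies on the minus strand of chr9:83836698-83921465. It measured 22.3, 25.8 and 22 CPM in the knockdown and 12.9, 12.2 and 15.4 CPM in the controls, higher without overlap. The means were 23.4 ± 2.09 CPM and 13.5 ± 1.7 CPM (SD, n = 3 each), a log2 fold change of 0.79 (SE 0.16, adjusted p 0.0211 in edgeR, 0.00113 with the block). The call was lost without knockdown replicate 2 (adjusted p 0.093) or 3 (0.0594) and without control replicate 1 (0.0597). The exons of KIF27 overlap those of the opposite-strand genes RP11-575L7.4 and RP11-575L7.2 over 8.58% and 6.77% of their length. RP11-575L7.4 had 47, 185 and 84 counts in the knockdown and 42, 80 and 81 in the controls. RP11-575L7.2 had 22, 66 and 20 counts against 23, 12 and 27. It is not known whether reads of KIF27 were told apart from theirs. KIF9, also known from motile cilia, measured 16, 19.2 and 20.1 CPM in the knockdown and 11.4, 13.7 and 13.2 CPM in the controls. It was higher without overlap (log2 fold change 0.53, SE 0.16, adjusted p 0.0811 in edgeR, 0.00827 with the block). KIF9 shares 14.9% of its exon length with its antisense gene KIF9-AS1, which had 100 to 220 counts per library. Whether their reads were told apart there is not known. KIF7 itself showed no such difference (log2 fold change -0.15, adjusted p 0.851 in edgeR), with 4.81 to 9.64 CPM in the knockdown and 4.31 to 12.5 CPM in the controls. KIF7 shares 11.8% of its exon length with the opposite-strand gene TICRR, which had 328 to 1894 counts per library, with the same limit.

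KIF24, a depolymerising kinesin of the mother centriole that holds back cilium formation, stood at 22.5, 16 and 13.2 CPM in the knockdown and 34.3, 30.8 and 21.5 CPM in the controls. Its libraries had the order of the mitotic kinesins, with knockdown replicate 1 above control replicate 3 (log2 fold change -0.74, SE 0.24, adjusted p 0.0938 in edgeR, 0.000737 with the block). KIF2A, a relative of KIF2C that is made throughout the cell cycle, measured 56.9, 58.1 and 56.2 CPM in the knockdown and 51.6, 55.9 and 48.7 CPM in the controls. The knockdown was higher by a narrow margin without overlap (log2 fold change 0.13, adjusted p 0.53 in edgeR). KIF2A was placed outside the mitotic class, and the counts for that class do not include it. KIF2A shares 8.97% of its exon length with the same-strand gene IPO11, which had 1373 to 2867 counts per library. KIF2A was the most abundant member of this class per length in the knockdown, and KIF21A in the controls, at 12.9 CPM per kilobase beside 10.9 for KIF2A. KIF26B had 14, 35 and 17 counts in the knockdown and 4, 19 and 14 in the controls (log2 fold change 1.04, adjusted p 0.186 in edgeR). KIF6, KIF12 and KIF25 were at or under 1.45 CPM in every library, with log2 fold changes of 0.57, 0.77 and 0.55 and adjusted p of 0.301, 0.236 and 0.588 in edgeR. KIF2B had 1 count and KIF19 had 2 counts over all 6 libraries, KIF26A had 1 to 22 counts per library, and none of these 3 was tested.

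**Figure D5:**
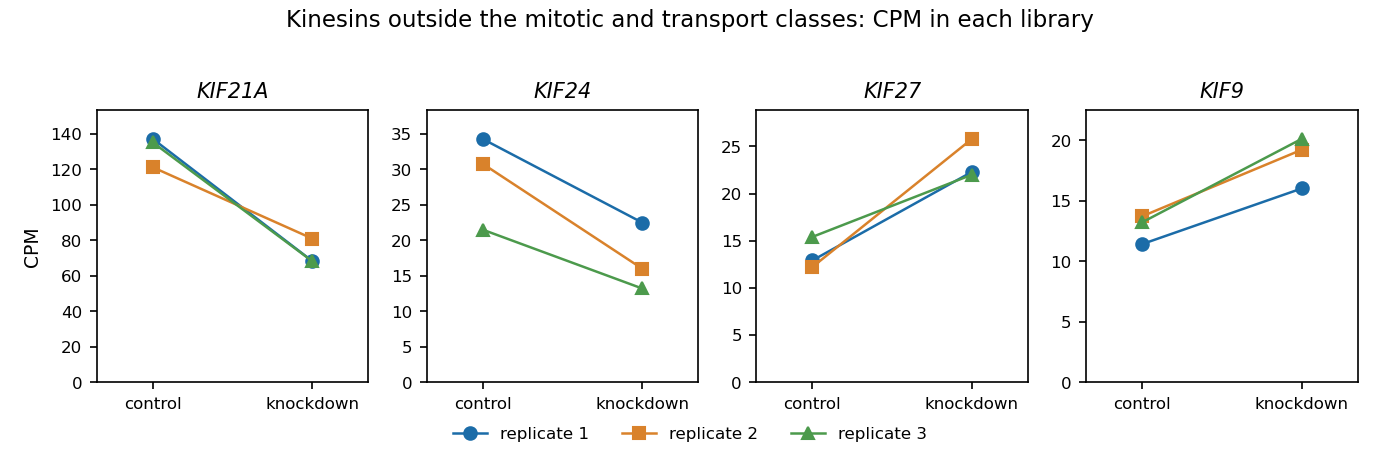
Level of KIF21A, KIF24, KIF27 and KIF9 in CPM (linear axes from 0), with lines joining control and knockdown libraries of the same replicate number. KIF21A lies lower in the knockdown, at 68 to 80.8 CPM against 121 to 137 CPM, and KIF27 and KIF9 lie higher.

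There were 4 kinesins with names outside the KIF pattern. KIFC1 (HSET), a minus-end motor that focuses spindle poles and clusters extra centrosomes, fell from 59.8, 54.9 and 34.7 CPM in the controls to 30.6, 21.5 and 14.5 CPM in the knockdown (log2 fold change -1.17, SE 0.29, adjusted p 0.0422 in edgeR). The groups were apart, and the call was lost on leaving out knockdown 2, knockdown 3, control 1 or control 2 (adjusted p up to 0.143). CENPE, the kinetochore kinesin that carries chromosomes to the spindle equator, measured 65.7, 55.4 and 31.3 CPM in the knockdown and 123, 96.7 and 69.9 CPM in the controls (log2 fold change -0.93, SE 0.28, adjusted p 0.0791 in edgeR, 3.79e-05 with the block). KIFC2 measured 45.7, 45.5 and 37.5 CPM in the knockdown and 25.9, 36.9 and 28.5 CPM in the controls, higher without overlap (log2 fold change 0.49, SE 0.17, adjusted p 0.108 in edgeR, 0.0102 with the block). KIFC3 stayed between 0.543 and 1.47 CPM (log2 fold change 0.08, adjusted p 0.929 in edgeR).

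Transcripts of proteins that work with mitotic kinesins were taken from a list of 16 spindle and midzone partners. Of these 1 was called lower, beside 4.88% of all tested genes, and 14 were called lower with the block, beside 14.9%. None was called higher in either fit, and the median log2 fold change was -1.03. Dropping knockdown replicate 1 raised the count from 1 to 10, and dropping knockdown replicate 2 left 0. One of the 16, AURKA, is also among the G2/M markers. INCENP, the scaffold of the chromosomal passenger complex that KIF20A carries, fell from 66.4, 80 and 50.1 CPM to 33.1, 21.9 and 20.5 CPM (log2 fold change -1.38, SE 0.23, adjusted p 0.0103 in edgeR, and 0.0561 without knockdown replicate 2). CDCA8 (borealin), of the same complex, and NUSAP1, a spindle microtubule protein, had log2 fold changes of -1.29 and -1.18 and the same adjusted p of 0.0557 in edgeR (1.46e-05 and 1.36e-05 with the block).

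The 17 light chains and adaptors of transport kinesins had a median log2 fold change of -0.00. In edgeR 1 was called lower, which is not reported singly here, and 2 with the block, with 0 called when any 1 library was left out. These counts are near the shares of all tested genes called lower, 4.88% and 14.9% with the block. MAPK8IP2, a JNK scaffold that binds kinesin light chain, had a log2 fold change of -0.87 (adjusted p 0.0972 in edgeR, 0.000643 with the block). Of 25 genes of cytoplasmic dynein, dynactin and their regulators, the motor system of the opposite direction, 3 were called lower (median -0.22). With the block 10 were called lower and 1 higher, beside 14.9% and 11.2% of all tested genes. PAFAH1B1 (LIS1), the dynein activator, had a log2 fold change of -1.19 (adjusted p 0.00185 in edgeR) and was called lower also without any one library (adjusted p at most 0.0181). DYNLL2, a light chain, and NDE1, a partner of LIS1, had log2 fold changes of -0.69 and -0.78 (adjusted p 0.0189 and 0.0308 in edgeR). Both calls were lost on leaving out knockdown 2, knockdown 3 or control 1, that of DYNLL2 also without control 3 and that of NDE1 also without control 2.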

How the data were processed

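RNA of 6 LNCaP libraries (3 knockdown, 3 control) was extracted with Trizol and made into libraries with a TruSeq RNA kit, per the labels' protocols. The deposited table gives raw counts of reads for each gene and library. The authors aligned to hg38 with STAR 2.5, counted with featureCounts (Subread 1.6.5) and used edgeR 3.20.8, per the submitters' processing notes. The annotation and strand setting are not given in the sources used here.

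From the deposited counts, edgeR 4.0.16 in R 4.3.3 compared the groups in a two-sided quasi-likelihood F test with TMM scaling, filterByExpr and Benjamini-Hochberg adjustment over all 21101 tested genes. A change was called at an adjusted p under 0.05. CPM values are TMM-scaled, and log2 fold changes are knockdown over control. The biological coefficient of variation was 20.8%, and 11.9% with the replicate number as a block. The scripts were tested on simulated data. The numbers were taken to pair the libraries because same-numbered libraries correlated over tested genes. Their deviations from the group means correlated at 0.554, 0.381 and 0.358, and those of other pairs at -0.39 to 0.06. Deviations from a group mean cancel out over its 3 libraries, so positive same-numbered values push the other values down. The other pairs are therefore no independent contrast. The pairing was inferred from the same counts that the block fit uses, and its p-values depend on it. If the 3 replicates of a group are not separate cultures, p-values measure technical spread.

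Each kinesin is accounted for. Values per library are given for called members, for the 6 with the smallest p in each class and for the most abundant per length. Other lists are given by counts, with at most 3 members named, and 1 result is not reported here. The members, classes and lists were chosen with earlier results of these data known. Copies of 3 members on alternative scaffolds held 0 counts and were left out. Exon overlaps come from the exon coordinates in the deposited count table. Transcript identity comes from BLASTN 2.17.0 on GENCODE transcripts, and promoter windows from RefSeq. Alternatives, with DESeq2 1.42.0 and limma 3.58.1 among them, are given in the closing section.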

Additional observations from a re-analysis of the deposited data

How the results depend on the processing

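The number of mitotic kinesins called lower was 2 in edgeR, 3 with limma-voom and 2 with RLE scaling, but 11 with the replicate block, 8 with DESeq2, 10 with no filter on low counts, and 1 with upper-quartile scaling or with a filter of 1 CPM in 3 libraries. With 1 library left out it ran from 0 to 7: 7 when knockdown replicate 1 was dropped, 3 when control replicate 3 was dropped, and 0 for each of the other 4. The median of the class stayed between -1.21 and -0.74 (log2) in all 13 alternatives. Transport kinesins called lower numbered 0, with 1 (KIF3A) under the replicate block, and those called higher numbered 0 in every alternative. All genes called numbered 1603, and 5506 with the replicate block, 3148 with no filter, and 497 to 1423 with 1 library left out. KIF20B lost its call with upper-quartile scaling (adjusted p 0.0582) and the 1 CPM filter (0.0523, edgeR). KIF16B turned from -0.08 to 0.04 with upper-quartile scaling. With 1 library left out, small uncalled differences changed sign: KIF3B ran from -0.03 to 0.10, KIF3C from -0.07 to 0.53, KIF16B from -0.15 to 0.07, KIF7 from -0.46 to 0.30 and KIF25 from -0.11 to 1.23. The cause was not tested. The block leaves 2 residual degrees of freedom and the fit without it 4. KIF12, KIF17, KIF21B, KIF25 and KIF26B rest on 4 to 61 counts per library, and the depth limits their precision.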
